A study of Mus musculus with 6 samples.

Results

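The Serpinb genes (clade B serpins) encode serine and cysteine protease inhibitors that mostly stay inside the cell, and 10 of them were followed here by their gene names among 33308 genes in the deposited table: Serpinb2, Serpinb3a, Serpinb5, Serpinb6c, Serpinb7, Serpinb8, Serpinb10, Serpinb11, Serpinb12 and Serpinb13. The 10 were chosen with the control and treated levels of these same samples known, so their differences between the groups are given as descriptions, with standard errors and without p-values. Polyadenylated RNA of mouse skin was sequenced in 2 groups of 3 samples, an untreated control group and a group treated with osimertinib over 42 days. Osimertinib is a drug that blocks EGFR, the receptor for epidermal growth factor, and skin problems under the drug were the subject of the study. The sources used here do not give strain, sex, age, dose, route or skin site. They also do not say whether samples within a group are different animals, so p-values reflect the spread among these samples alone, and that spread may be technical.

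A serpin works as a bait: a protease cuts its exposed reactive centre loop, the cut loop inserts into a beta sheet of the serpin, and the covalently bound protease is carried along and distorted. Clade B serpins lack a classical cleaved signal peptide, and in the epidermis several of them are made as keratinocytes leave the basal layer and cornify. In humans, loss of SERPINB7 causes a palmoplantar keratosis and loss of SERPINB8 a peeling skin disorder. Not every member inhibits proteases: Serpinb5, known as maspin, lacks inhibitory activity.

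In treated skin, 8 of the 10 genes had lower mean levels and 2 had higher mean levels. Serpinb11 stood furthest apart, with 9.51-fold lower levels in treated skin and a small spread in both groups. Serpinb2, Serpinb7, Serpinb8, Serpinb10 and Serpinb6c were between 2.18-fold and 3.95-fold lower, Serpinb5 and Serpinb12 were lower by less than their spread, and the 2 scarce genes Serpinb3a and Serpinb13 were 5.33-fold and 3.84-fold higher. Levels are counts scaled to library size (CPM), scaled between libraries with TMM factors, and fold changes are osimertinib over control from the edgeR fit.

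Depth and tissue make-up bear on every level here. Library totals ran from 54112624 to 60719064 counts, and a count of 0 allows up to 3 counts, a level of 0.0494 to 0.0554 CPM per library before TMM scaling, for counting error only. The 15 pan-epithelial markers, such as Krt5, Epcam and Cdh1, were all detected, and their levels summed to 21748, 12393 and 38376 CPM in controls 1, 2 and 3, then to 23271, 14532 and 14223 CPM in osimertinib samples 1, 2 and 3. Skeletal muscle markers (12 of 12 detected) summed to 41986, 152609 and 249.4 CPM in control skin and to between 37018 and 68438 CPM in treated skin. Control 2 therefore held the lowest epithelial and the highest muscle share of the controls, and control 3 held little muscle. In whole skin, fewer cells of a type and less RNA per cell cannot be told apart.

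The order of the genes by level was taken from the deposited FPKM values, which are scaled to gene length. In controls Serpinb2 (133 ± 85.7 FPKM, SD, n = 3) and Serpinb5 (99.7 ± 56.2 FPKM) came first, above 97.4% and 96.6% of the tested genes, and they did not differ from each other beyond their spread. Serpinb7 (32.2 ± 19.0 FPKM), Serpinb11 (19.5 ± 6.96 FPKM), Serpinb8 (18.7 ± 10.1 FPKM) and Serpinb10 (13.0 ± 7.49 FPKM) followed, and each differed from the next in this order by less than the larger of their SDs, while Serpinb7 was above Serpinb10 in all 3 controls. Serpinb6c (3.91 ± 2.00 FPKM) and Serpinb12 (3.08 ± 0.459 FPKM) were scarce, and Serpinb13 (0.334 ± 0.136 FPKM) and Serpinb3a (0.195 ± 0.227 FPKM) were scarcer still. In treated skin the order changed: Serpinb5 was first at 62.3 ± 21.4 FPKM, Serpinb2 second at 46.1 ± 49.9 FPKM, and Serpinb11 moved from rank 4 to rank 7 at 2.10 ± 0.414 FPKM. Serpinb2, Serpinb5 and Serpinb7 together made up between 71.8% and 87.9% of the summed FPKM of the 10 genes in every sample. Serpinb2 stood at 1.46, 0.933 and 1.33 times the FPKM of Serpinb5 in controls 1, 2 and 3, then at 1.38, 0.258 and 0.410 times in osimertinib samples 1, 2 and 3, so osimertinib 1 kept the ratio of the controls and the other treated samples did not.

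**Figure D1:**
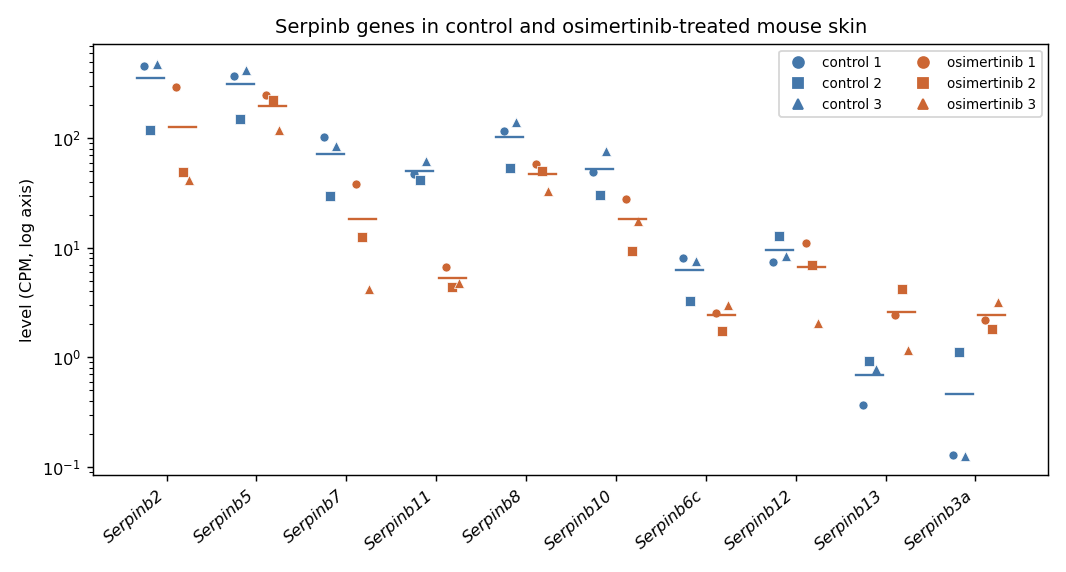
Level of each of the 10 Serpinb genes in the 6 skin samples, in CPM on a log axis. Points are single samples, horizontal lines are group means (n = 3), and genes are ordered by their control FPKM. Serpinb11, Serpinb10 and Serpinb6c have every treated sample below every control, while Serpinb13 and Serpinb3a have every treated sample above every control.

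Serpinb11, a serpin of epithelia that lies in the middle of the chromosome 1 cluster (chromosome 1, 107361198 to 107380475, plus strand, GRCm38), was at 47.7, 41.6 and 61.8 CPM in controls 1, 2 and 3. In osimertinib samples 1, 2 and 3 it was at 6.74, 4.41 and 4.74 CPM. No treated sample came near a control, and control 2, which was the lowest control for most of the epithelial genes, did not stand apart for Serpinb11. The log2 fold change was −3.25 ± 0.26 (SE, n = 3 per group). In CPM the controls varied by 20.6% (coefficient of variation), less than for any other of the 10 genes. In FPKM the controls of Serpinb12 (3.08 ± 0.459) varied less for their mean than those of Serpinb11 (19.5 ± 6.96). Leaving out each sample in turn, changing the scaling, the filter or the unit, or setting the gene against either marker list kept the log2 fold change between −3.46 and −2.08.

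Serpinb2, the plasminogen activator inhibitor type 2 that blocks urokinase and tissue plasminogen activator, was at 459.6, 119.7 and 480.5 CPM in controls 1, 2 and 3. In osimertinib samples 1, 2 and 3 it was at 290.7, 48.9 and 41.8 CPM. The groups overlap, because control 2 was low and osimertinib 1 was high. The log2 fold change was −1.47 ± 0.92 (SE). Leaving out 1 sample in turn, it ran from −2.96 without osimertinib 1 to −1.03 without osimertinib 3.

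Serpinb7, the gene whose human counterpart is lost in palmoplantar keratosis, was low in the same 3 samples as Serpinb2, namely control 2, osimertinib 2 and osimertinib 3. Controls 1, 2 and 3 were at 103, 30.0 and 84.4 CPM, and osimertinib samples 1, 2 and 3 at 38.3, 12.6 and 4.19 CPM. Osimertinib 1 lay just above control 2, and osimertinib 3 was the lowest of all samples. The log2 fold change was −1.98 ± 0.85 (SE). Leaving out 1 sample in turn, it ran from −3.11 without osimertinib 1 to −1.48 without osimertinib 3.

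Serpinb8, an inhibitor of the proprotein convertase furin, was at 116, 53.9 and 139 CPM in the controls. It was at 58.1, 50.5 and 33.1 CPM in the treated samples. Here too the overlap came from control 2, which lay between osimertinib 1 and osimertinib 2, and the log2 fold change was −1.13 ± 0.40 (SE). Serpinb5 (maspin), a serpin of basal and other epithelial cells, was at 369, 150.2 and 423 CPM in control skin and at 247, 222 and 119 CPM under treatment. Control 2 was below 2 of the treated samples, and the log2 fold change of −0.68 ± 0.47 (SE) was within the spread between samples.

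Serpinb10, known as bomapin and first described in blood-forming cells, was at 49.7, 30.1 and 76.5 CPM in the controls. In the treated samples it was at 28.0, 9.28 and 17.6 CPM, so the groups did not overlap, by a margin of control 2 over osimertinib 1 that was small against the spread. The log2 fold change was −1.51 ± 0.50 (SE). T and NK cell markers (8 of 8 detected in at least 1 sample, 3 past the FPKM filter) summed to 29.0, 11.9 and 36.8 CPM in controls 1, 2 and 3 and to 12.5, 5.00 and 10.9 CPM in osimertinib samples 1, 2 and 3. As for Serpinb10, controls 3 and 1 were highest and osimertinib 2 was lowest. Macrophage markers summed to 261.8, 236.8 and 249.3 CPM in controls 1, 2 and 3. They summed to 230.2, 110.1 and 334.7 CPM in osimertinib samples 1, 2 and 3, lowest in osimertinib 2 but highest in osimertinib 3. Neutrophil markers, given below, were higher in every treated sample than in any control. Ncr1 was at 0 counts in every sample but control 3, and Cd8a and Klrb1c were at 0 counts in 1 sample each. The part of any of these immune cells in the level of Serpinb10 was not tested. Serpinb10 begins inside the deposited span of Serpinb2 on the same strand, with 3533 bases in common, but the annotated coding transcripts of the 2 genes share 0 exonic bases.

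Serpinb6c is the one gene of the 10 outside chromosome 1 (chromosome 13, 33879816 to 33905708, minus strand). Its level was 8.03, 3.29 and 7.56 CPM in control skin and 2.53, 1.74 and 3.03 CPM under treatment. The lowest control was just above the highest treated sample, and the log2 fold change was −1.37 ± 0.44 (SE). Serpinb12, an inhibitor of trypsin-like serine proteases, was at 7.48, 12.8 and 8.43 CPM in control skin and at 11.0, 6.99 and 2.05 CPM under treatment. Only osimertinib 3 was clearly low, and the log2 fold change was −0.52 ± 0.60 (SE).

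Both genes with higher levels in treated skin are scarce, and both belong to branches of the clade known for inhibiting cysteine proteases. Serpinb3a, a mouse counterpart of the human squamous cell carcinoma antigens, was at 0.128, 1.13 and 0.126 CPM in controls 1, 2 and 3, from 7, 51 and 8 counts. In osimertinib samples 1, 2 and 3 it was at 2.21, 1.82 and 3.21 CPM, from 128, 117 and 197 counts. Every treated sample was above every control, and control 2 was well above the other controls. The log2 fold change was 2.41 ± 0.91 (SE). Leaving out 1 sample in turn, it ran from 1.95 without control 3 to 4.24 without control 2. On log2(FPKM + 1) it was 0.939. Serpinb13, known as headpin or hurpin and an inhibitor of cathepsins K and L, was at 0.365, 0.928 and 0.788 CPM in control skin, from 20, 42 and 50 counts. It was at 2.43, 4.17 and 1.16 CPM in treated skin, from 141, 268 and 71 counts. The groups did not overlap, although osimertinib 3 was close to control 2, and the log2 fold change was 1.94 ± 0.61 (SE).

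Inner root sheath markers of the growing hair follicle (8 of 8 detected) summed to 7.63, 190 and 9.88 CPM in controls 1, 2 and 3, then to 518, 4002 and 483 CPM in osimertinib samples 1, 2 and 3. Like Serpinb3a and Serpinb13 they were highest in control 2 among the controls, and like Serpinb13 they were highest in osimertinib 2 among the treated samples. Neutrophil markers (9 of 9 detected, 2 of them past the filter described next) summed to 0.748, 21.2 and 22.4 CPM in control skin and to 204, 67.8 and 563 CPM in treated skin, with the same order of the treated samples as Serpinb3a. Among the controls the order differed, because these markers were as high in control 3 as in control 2 and Serpinb3a was not. The part of these cell types in the levels of Serpinb3a and Serpinb13 was not tested.

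For the test across the whole table, genes were kept whose FPKM averaged 1 or more over the 6 samples. This left 13498 genes and 8 of the 10 Serpinb genes. Serpinb3a and Serpinb13 did not pass it, so their fold changes come from a fit of the 31732 genes with any count. All 8 genes that passed had negative fold changes, with a median log2 fold change of −1.42, whereas 54.7% of all tested genes had a negative fold change and their median was −0.05. In 3 of the 8, Serpinb6c, Serpinb10 and Serpinb11, every treated sample was below every control, which held for 9.38% of tested genes. In Serpinb3a and Serpinb13 every treated sample was above every control, which held for 7.53% of genes with any count. Since the genes were chosen on this contrast, nothing is read from these counts. Without control 2 the count of 3 became 7 (all but Serpinb12) and the share of all tested genes became 24.8%. Without osimertinib 1 it was also 7 (all but Serpinb5), at 15% of all tested genes. Leaving out any of the other 4 samples left 3, at 10.6% to 15.3% of all tested genes.

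**Figure D2:**
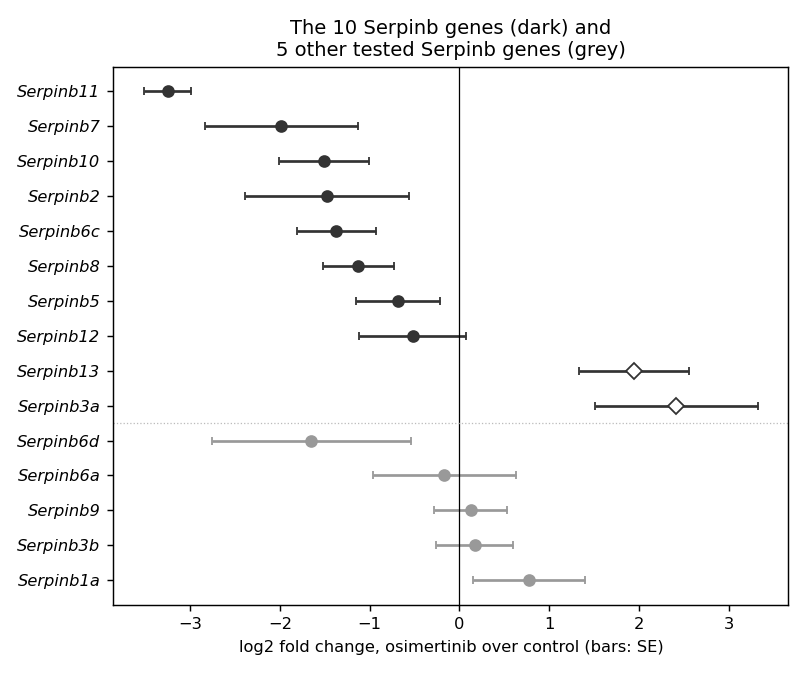
Log2 fold change of osimertinib over control with its standard error for the 10 Serpinb genes (dark) and for 5 other Serpinb genes that passed the FPKM filter (grey). Open diamonds are Serpinb13 and Serpinb3a, which were fitted without that filter. The dark points run from −3.25 for Serpinb11 to 2.41 for Serpinb3a.

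Because the epithelial share differed between samples, each gene was also set against the mean log2 CPM of the 15 pan-epithelial markers, which was itself 0.33 lower in treated skin on average and was 9.30, 8.19 and 9.65 in controls 1, 2 and 3, then 9.05, 8.79 and 8.32 in osimertinib samples 1, 2 and 3. On this scale Serpinb8 was the tightest of the 10 genes. Its level relative to the markers was −2.44, −2.43 and −2.53 in control skin and −3.19, −3.13 and −3.27 under osimertinib (log2 differences), so that the overlap seen in CPM was gone. Serpinb5 stayed close to the markers in every sample, at −0.77, −0.96 and −0.93 in control skin and −1.10, −0.998 and −1.42 in treated skin, a difference of −0.29. Serpinb11 kept a wide gap, with −3.72, −2.81 and −3.70 against −6.30, −6.65 and −6.07.

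Relative to the pan-epithelial markers, every treated sample was below every control in 5 of the 8 tested Serpinb genes, namely Serpinb5, Serpinb7, Serpinb8, Serpinb10 and Serpinb11, against 3.13% of all tested genes. For Serpinb5 the margin was narrow, between control 2 and osimertinib 2. Serpinb2 was the exception among the abundant genes, at −0.45, −1.28 and −0.75 in control skin and −0.87, −3.18 and −2.93 in treated skin, where osimertinib 1 stood with the controls. Serpinb6c overlapped on this scale as well, since osimertinib 3 (−6.71) was level with control 3 (−6.73). Serpinb3a and Serpinb13 still had every treated sample above every control, against 5.64% of genes with any count, but Serpinb3a by a narrow margin, with −8.00 in control 2 and −7.92 in osimertinib 2. The choice of this reference moved the median log2 fold change of all tested genes from −0.05 to 0.34.

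**Figure D3:**
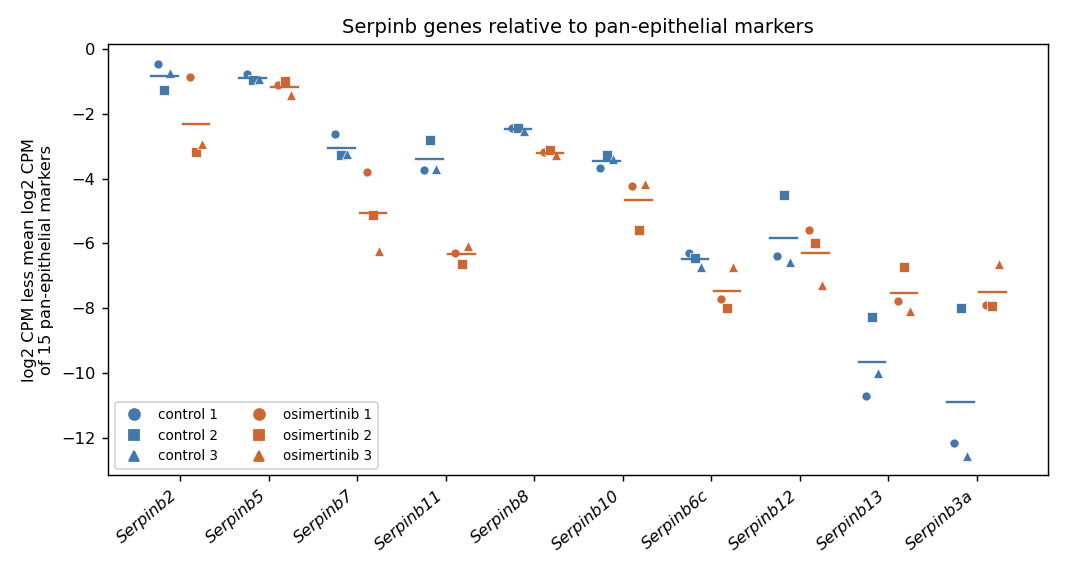
Level of each Serpinb gene relative to 15 pan-epithelial markers, as log2 CPM less the mean log2 CPM of the markers. Points are single samples and lines are group means (n = 3). Serpinb8 lies near −2.5 in the 3 controls and near −3.2 in the 3 treated samples, and Serpinb11 has the widest gap among the genes that are lower in treated skin.

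Markers of the suprabasal epidermis, the layers above the basal one, moved with several of these genes. The list (15 of 15 detected, with Krt2 at 0 counts in osimertinib 2) summed to 18292, 7871 and 18513 CPM in controls 1, 2 and 3, then to 12497, 6127 and 3128 CPM in osimertinib samples 1, 2 and 3. As for Serpinb7, osimertinib 3 was lowest, followed by osimertinib 2 and control 2. Set against the mean log2 CPM of the suprabasal markers, a choice made after the data were seen, Serpinb11 and Serpinb7 still had every treated sample below every control, with differences of −2.08 and −1.17, against 0.563% of all tested genes. Serpinb2 (−0.66), Serpinb10 (−0.38) and Serpinb6c (−0.13) overlapped on this scale. Serpinb5 (0.55), Serpinb8 (0.12) and Serpinb12 (0.39) changed sign, Serpinb3a (4.27) and Serpinb13 (2.97) were above every control in every treated sample against 10.7% of genes with any count, and this reference moved the median of all tested genes to 1.18. The part of the suprabasal share in the lower Serpinb levels was not tested.

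Genes with the most similar profiles were found by the root mean square difference of gene-centred log2 CPM over the 6 samples, among 12091 tested genes, for the 3 members with the highest mean FPKM. Serpinb2 was nearest to Il22ra2, the decoy receptor of interleukin 22 (0.20), Sema3d (0.31) and Krtdap (0.34). Krtdap is a keratinocyte differentiation gene and one of the suprabasal markers. Serpinb5 was nearest to Vsig10l (0.064), the desmosomal plaque gene Dsp (0.082), which is one of the pan-epithelial markers, and Prom2 (0.12). Serpinb7 was nearest to 3 genes of one family, Skint6 (0.096), Skint7 (0.12) and Skint5 (0.18), which encode membrane proteins of keratinocytes. Skint6, for example, was at 20.4, 4.93 and 16.4 CPM in controls 1, 2 and 3, then at 6.75, 2.38 and 0.799 CPM in osimertinib samples 1, 2 and 3. These likenesses rest on 6 samples that share the differences in epithelial content given above.

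Position was not used to choose the genes, but they belong to a single gene family and were chosen with their levels known. Nothing is therefore read from how they lie along the chromosome. Of the 10 genes, 9 lie in one cluster on chromosome 1, from 106861173 to 107610484. In the deposited table this span of 749 kb holds 11 Serpinb genes and 4 genes of other names, which are not described. The other 2 Serpinb genes of the span are Serpinb3b and Serpinb3c. From one end to the other the order is Serpinb5, Serpinb12, Serpinb13, Serpinb3a, Serpinb3b, Serpinb3c, Serpinb11, Serpinb7, Serpinb2, Serpinb10 and Serpinb8. The 5 genes from Serpinb11 to Serpinb8 had log2 fold changes between −3.25 and −1.13, while the first 2, Serpinb5 and Serpinb12, were at −0.68 and −0.52. Serpinb13 and Serpinb3a, the genes with positive fold changes, are next to each other among the Serpinb genes, and Serpinb3b beside them was at 0.17 ± 0.43 (SE). By deposited position (GRCm38), Serpinb7 spans 107399655 to 107452689, Serpinb2 spans 107511423 to 107532535, Serpinb10 spans 107529003 to 107549271 and Serpinb8 spans 107590006 to 107610484, all on the plus strand. Serpinb5 (106861173 to 106883348), Serpinb12 (106934449 to 106957080) and Serpinb13 (106980984 to 107001195) are also on the plus strand, and Serpinb3a (107045587 to 107052303) is on the minus strand. Outside the cluster, the nearest gene before it, Vps4b, a component of endosomal sorting, had a log2 fold change of −0.26 ± 0.23 (SE, adjusted p = 0.68 by edgeR). The nearest gene after it, Gm15389, a gene model, did not pass the filter, with 0, 0.243 and 0 CPM in control skin and 1.14, 0.514 and 0.440 CPM under osimertinib.

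**Figure D4:**
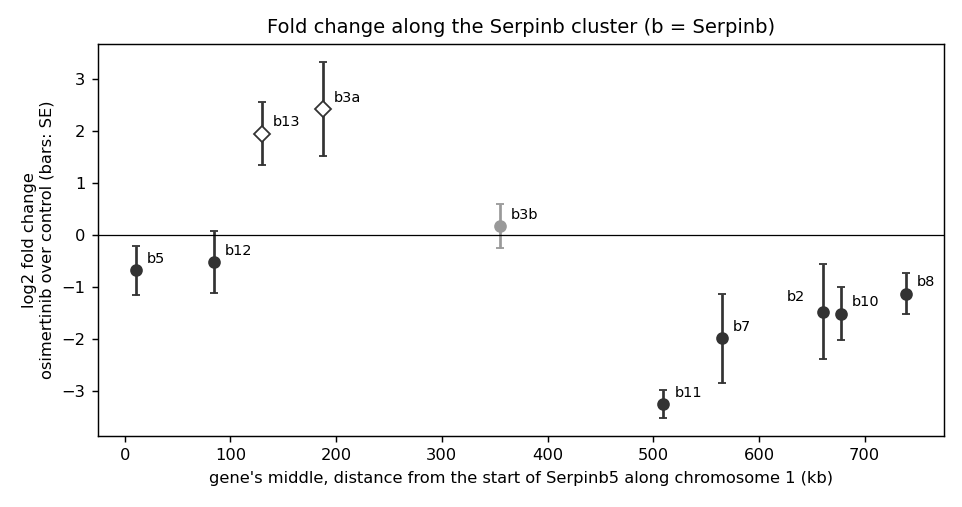
Log2 fold change of osimertinib over control (with standard error) against the distance of each gene's middle from the start of Serpinb5 along chromosome 1, in kb. Dark points are the 9 chosen genes, the grey point is Serpinb3b, and open diamonds are genes fitted without the FPKM filter. Serpinb3c, with at most 9 counts in any sample, is not drawn. All 5 genes beyond Serpinb3b are below 0, and Serpinb13 and Serpinb3a are above it.

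RefSeq start sites (GRCm38.p6) were matched for 9 of the 10 genes, all but Serpinb13, with 11 start sites in all. The 250 bases before each were searched on both strands for letters that resemble the binding sites of common factors. TGANTCA, where N is any base, is a looser form of the AP-1 site TGAGTCA or TGACTCA, and is shown because it recurred. It was found before 8 of the 11 starts, those of Serpinb2, Serpinb5, Serpinb7, Serpinb8, Serpinb10, Serpinb11 and 1 of 2 of Serpinb12. It was also found before 6.75% of all 32851 RefSeq starts in mouse, again with any base at N. Only Serpinb7 and Serpinb8 had TGAGTCA, and the others had TGAATCA or TGATTCA or both. TGANTCA was not found in the windows of Serpinb3a, which was higher in treated skin, or of Serpinb6c, which was lower. The TATA box letters TATAAA stood before 6 of the 11 starts and 12.4% of all starts, CCAAT before 3 and 33.8%, the GC box GGGCGG before 2 and 32.7%, and the STAT site TTCNNNGAA before 1 and 7.02%. Neighbouring starts of 1 gene share sequence, so that both starts of Serpinb2 count the same TGANTCA letters. A match of letters is not evidence of binding. Of the starts that lie outside annotated exons, 3 with a TGANTCA match are printed with Serpinb3a, which has none. Capitals mark TGANTCA and TATAAA on either strand, and each sequence runs 5′ to 3′ on the strand of its gene.
Serpinb8, chr1:107589756-107590005, plus strand: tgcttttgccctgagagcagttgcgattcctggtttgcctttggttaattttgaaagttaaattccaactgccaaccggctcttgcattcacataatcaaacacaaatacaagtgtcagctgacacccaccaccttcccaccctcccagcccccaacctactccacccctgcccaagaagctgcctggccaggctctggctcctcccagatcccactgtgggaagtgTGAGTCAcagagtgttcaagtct
Serpinb7, chr1:107422439-107422688, plus strand: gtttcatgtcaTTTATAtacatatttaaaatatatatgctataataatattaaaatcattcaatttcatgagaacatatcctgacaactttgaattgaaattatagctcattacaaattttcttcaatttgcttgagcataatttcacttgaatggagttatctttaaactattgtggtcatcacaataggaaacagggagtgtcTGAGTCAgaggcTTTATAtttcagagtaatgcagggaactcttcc
Serpinb2, chr1:107511173-107511422, plus strand: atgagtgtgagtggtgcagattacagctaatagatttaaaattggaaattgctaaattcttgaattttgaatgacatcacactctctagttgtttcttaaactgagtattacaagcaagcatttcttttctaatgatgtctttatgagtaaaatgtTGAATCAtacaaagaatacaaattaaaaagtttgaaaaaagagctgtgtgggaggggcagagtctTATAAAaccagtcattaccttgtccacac
Serpinb3a, chr1:107052304-107052553, minus strand: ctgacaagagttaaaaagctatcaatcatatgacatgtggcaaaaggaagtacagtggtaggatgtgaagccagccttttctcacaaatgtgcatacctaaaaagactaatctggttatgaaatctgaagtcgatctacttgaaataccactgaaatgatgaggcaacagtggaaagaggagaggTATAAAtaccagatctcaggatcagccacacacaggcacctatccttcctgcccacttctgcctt
In the window of Serpinb8, the TGANTCA letters begin 23 bases before the start, in that of Serpinb7 45 bases before it and in that of Serpinb2 94 bases before it. The RefSeq start of Serpinb7 is 23034 bases inside the deposited gene span. Serpinb11 had 2 matches, beginning 181 and 76 bases before its RefSeq start, which lies 1116 bases inside the deposited gene. All 250 bases of that window lie in annotated exons.

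The other Serpinb genes had fold changes in both directions. Of 18 listed, 13 were matched in the table, and 5 passed the filter, of which 3 had positive and 2 negative fold changes, with a median log2 fold change of 0.12. By edgeR 0 of the 5 passed the adjusted threshold, 0 had an unadjusted p under 0.05, and DESeq2 called 0 as well. Serpinb6a, an inhibitor of cathepsin G and other serine proteases, was at 550.4, 2336 and 253 CPM in control skin and 1076, 722 and 998 CPM under treatment, highest in control 2 and lowest in control 3, as were the muscle markers, whose part in it was not tested (log2 fold change −0.17 ± 0.79, SE, adjusted p = 0.97 by edgeR). Serpinb1a, an inhibitor of neutrophil proteases, was at 16.5, 47.2 and 10.5 CPM in control skin and 64.2, 25.7 and 36.8 CPM in treated skin (0.77 ± 0.62, adjusted p = 0.64 by edgeR). Serpinb6d was at 68.8, 9.02 and 13.2 CPM in control skin and 4.46, 2.35 and 22.2 CPM under osimertinib, with control 1 far above the rest (−1.65 ± 1.11, adjusted p = 0.56 by edgeR). Serpinb9, the granzyme B inhibitor, had a log2 fold change of 0.12 ± 0.41 (adjusted p = 0.95 by edgeR). Serpinb3b, the closest relative of Serpinb3a in the tested set, was at 7.39, 11.9 and 20.0 CPM in control skin and 18.1, 9.52 and 16.6 CPM in treated skin (adjusted p = 0.93 by edgeR). Serpinb3a stood at 0.0167, 0.0954 and 0.00583 times the FPKM of Serpinb3b in controls 1, 2 and 3, then at 0.126, 0.197 and 0.200 times in osimertinib samples 1, 2 and 3. How the authors divided reads between such relatives is not given in the sources used here. None of the 10 genes shares a stretch of 100 bases with an annotated coding transcript of another of the 10 or of the 13 matched genes. Listed Serpinb genes that were not matched in the table were not compared.

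Proteases that clade B serpins can meet were listed as well, with fold changes in both directions. Over the whole table edgeR called 0 genes in either direction (1883 at an unadjusted p under 0.05, 14% of those tested), while DESeq2 called 460 higher (3.41%) and 398 lower (2.95%). Of 28 serine proteases 18 were tested, 9 with positive and 9 with negative fold changes (median log2 fold change −0.08). DESeq2 called 1 of these, the matriptase gene St14, at 94.5, 64.3 and 100 CPM in control skin and 187, 404 and 160 CPM in treated skin (1.53 ± 0.41, SE, adjusted p = 0.26 by edgeR and 0.0103 by DESeq2). The next smallest p-values by edgeR were those of Prss27 (1.86 ± 0.64), Klk13 (1.84 ± 0.68) and Tmprss4 (−1.03 ± 0.45), each with an adjusted p of 0.31, 0.33 and 0.37. Fold changes of the targets of named serpins did not pass the test: Plau, which encodes urokinase, was at 0.20 ± 0.37, Plat, which encodes tissue plasminogen activator, at 0.39 ± 0.29, and Furin at 0.01 ± 0.15, with adjusted p of 0.89, 0.60 and 0.98 by edgeR.

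All 10 cysteine cathepsins were tested, 5 with positive and 5 with negative fold changes (median 0.09). The Serpinb13 targets Ctsk and Ctsl were at 0.29 ± 0.37 and −0.11 ± 0.23, with adjusted p of 0.80 and 0.91 by edgeR. DESeq2 called 1 cathepsin, Ctso, lower in every treated sample (−0.83 ± 0.26, adjusted p = 0.28 by edgeR and 0.0495 by DESeq2). Ctsz (0.995 ± 0.31), Ctsc (0.56 ± 0.20) and Ctsw (−1.58 ± 0.56) had adjusted p of 0.29, 0.32 and 0.32 by edgeR. Plau, Plat, Furin, Ctsk and Ctsl were named after their values were seen, as known targets of the serpins above. Among 31 serpins of other clades in the table, 13 were tested, 4 with positive and 9 with negative fold changes (median −0.23). DESeq2 called 2 of them, Serpina3g and Serpina3h, as lower in every treated sample (−2.17 ± 0.38 and −2.59 ± 0.50, adjusted p of 0.18 and 0.19 by edgeR and 4.9e-06 and 2.3e-05 by DESeq2). Serpina3i (−1.23 ± 0.50) and Serpina3c (−0.93 ± 0.41) had adjusted p of 0.35 and 0.39 by edgeR. Among 11 cystatins, the other family of cysteine protease inhibitors, 9 were tested, 7 with positive and 2 with negative fold changes (median 0.82), and DESeq2 called Cstb, at 76.9, 58.4 and 91.9 CPM in control skin and 145, 123 and 133 CPM in treated skin (0.82 ± 0.21, adjusted p = 0.25 by edgeR and 0.0034 by DESeq2). Cst3 (−0.73 ± 0.29), Stfa2 (1.37 ± 0.52) and Stfa3 (1.73 ± 1.003) had adjusted p of 0.35, 0.33 and 0.50 by edgeR.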

How the data were processed

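The deposited table gives raw counts per gene and FPKM values computed by the authors, as named in the file headers. Cutadapt 1.9 and build GRCm38 are named in the submitters' processing notes. The sources used here do not name the aligner or the counting tool, or say whether strand or molecular identifiers were used. A further 6 columns match no sample and were not used. The genes and lists were chosen with earlier results of these data known.

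Genes averaging 1 FPKM or more (13498) were fitted on their counts with edgeR 4.0.16 under R 4.3.3, by its quasi-likelihood test (TMM scaling, no covariate, two-sided, Benjamini-Hochberg adjustment, threshold 0.05). SE is the log2 fold change over the square root of F. DESeq2 1.42.0 and limma 3.58.1 served as alternatives. The suprabasal reference, the count of non-overlapping genes without each sample, and the motifs searched in RefSeq promoters were chosen after the data were seen. In counts simulated for the comparison of treated with control skin (13498 genes), edgeR found 1.49%, 46.3% and 89.4% of genes changed 2-fold, 4-fold and 8-fold, with 7 false calls, and DESeq2 found 14.9%, 86.6% and 95.5% with 65. The changed genes were drawn from those above a count floor and were only raised. Each gene varied on its own with the spread estimated by edgeR, without shared shifts in tissue make-up. These shares therefore need not hold for the real samples.

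Named genes are the 10 members, the other Serpinb genes that passed the filter, up to 4 genes with the smallest p of each list, the 3 nearest profiles of the 3 most abundant members and the genes flanking the chromosome 1 cluster. On chromosome 13 those were Wrnip1 and Gm17083, which are not described. Of 33308 deposited genes, 33211 were matched to GENCODE M21, 99.5% with the same start.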

Additional observations from a re-analysis of the deposited data

How the results depend on the processing

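With an adjusted threshold, edgeR called 0 genes, DESeq2 858, limma on log2(FPKM + 1) 17 and on log2(FPKM + 0.1) 2, a mean FPKM of at least 5 gave 2, and the skeletal muscle score as a covariate gave 1. DESeq2 called 1 serine protease, 1 cysteine cathepsin, 2 serpins of other clades and 1 cystatin, against 0 of each by edgeR. The median log2 fold change of the tested Serpinb genes was −1.42 and lay between −1.72 and −1.15 without any 1 sample, and at −0.25 against the suprabasal markers. Leaving out 1 sample in turn gave a count of 3 to 7 for Serpinb genes with every treated sample below every control. The share of all tested genes rose as well, from 9.38% with all samples to between 10.6% and 24.8%. The median of serpins of other clades ran from −0.646 without osimertinib 3 to 0.0109 without osimertinib 2, and that of cystatins from 0.367 without control 1 to 1.72 without control 3. Medians near 0 changed sign under 7, 6, 1 and 1 of 16 alternatives for the other Serpinb genes, serine proteases, cathepsins and serpins of other clades. Of 174 alternative fold changes of single members, 161 moved by less than 1 SD of that gene's log2 CPM within groups. This SD ran from 0.309 for Serpinb11 to 1.36 for Serpinb2, so wide moves could stay under it. Serpinb7 at −3.11 without osimertinib 1 is among the 161, as is Serpinb12 at 0.39 against the suprabasal markers. Of the 174, 3 changed sign, all against the suprabasal markers. With the replicate number as a block, the median of the Serpinb genes was −1.42 and edgeR called 0 genes. Same-numbered samples deviated together with correlations of 0.222, 0.0294 and −0.115, and not every sample correlated best with its own number, so the numbers were not taken to pair the samples. At this depth Serpinb3c, with 0 to 9 counts, could not be compared. Its deposited span also has 7161 bases in common with that of Serpinb3b on the same strand. How reads were divided between the 2 genes is not given.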
